A study of Drosophila melanogaster with 12 samples.

Results

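The maltases Mal-A1, Mal-A2, Mal-A3, Mal-A4, Mal-A8, Mal-B1 and Mal-B2 and the amylase relative Amyrel are 8 carbohydrate-digesting enzymes of *Drosophila melanogaster*. Their levels were followed between a rich and a restricted yeast diet in mRNA carrying many and few ribosomes. The members were the probe sets whose only current symbol was 1 of these 8 names, and each gene had 1 such probe set, among 11982 genes named on the array. The filter on low intensity kept 9494 genes, the 8 members included.

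Maltases are α-glucosidases, which release glucose from maltose and from the short glucose chains that amylase leaves when it cuts starch. In the fly they are known mainly as enzymes of the midgut, where the sugars are taken up, and Amyrel is a divergent relative of the α-amylase genes. Starch- and sugar-digesting enzymes of the fly are known to respond to diet, and sugar feeding is known to lower amylase expression through the activin-type ligand daw and the transcription factor sug.

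The flies were w1118 males, a white-eyed laboratory strain, moved 1 to 2 days after eclosion onto food with 4% or with 0.25% yeast extract (YE) and kept there for 6 days. Yeast supplies the protein of fly food, and its reduction is a common form of dietary restriction. About 100 whole males were ground for each extract, a sucrose gradient sorted mRNAs by ribosome load, and RNA was taken from a high translation fraction (5 or more ribosomes) and a low translation fraction (1 to 4 ribosomes). The 4 groups, high and low fraction on each diet, had 3 biological replicates each on 12 arrays, all of the 1 strain and sex, and the labels name no other allele, transgene or agent.

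Values are array intensities after quantile normalization, which gives all arrays the same distribution, so that they are relative levels within an array. Intensities of different probe sets are not comparable. A log2 difference is on the scale of log2(intensity + 1), with its standard error (SE) from limma, and a call is a Benjamini-Hochberg adjusted p below 0.05 over all 11261 probe sets tested. In whole flies, fewer cells of a type and less RNA per cell cannot be told apart. All 8 members exceeded the array background, the 95th percentile of control probe sets, in 3 of 3 arrays of every group. The arrays numbered 1 stood apart: within a group their log2 intensities correlated at 0.859 to 0.943 with those numbered 2 and 3, which correlated with each other at 0.979 to 0.988. Results are therefore also given without the 4 arrays numbered 1, a fit of 2 arrays per group.

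Of the 8 members, 4 fell in the high fraction on 0.25% YE (Mal-A2, Mal-A4, Mal-A8 and Amyrel), 3 fell in the low fraction (Mal-A2, Mal-A4 and Amyrel), and 0 rose in either. Among all probe sets 1.23% fell in the high fraction, while 0.87% fell in the low one. The 3 that fell in both fractions compare with 0.586% of all probe sets. The median log2 difference of the 8 was -1.65 for the high and -1.498 for the low fraction, beside 0.02 and 0.03 over all probe sets tested. All 8 differences lay below 0 in both fractions, as did 48.0% and 45.8% of all. The intensities on the diets did not overlap for 7 of 8 members in each fraction, Mal-B1 being the exception, and 11.6% of all probe sets were lower without overlap for the high fraction and 8.21% for the low one.

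**Figure D1:**
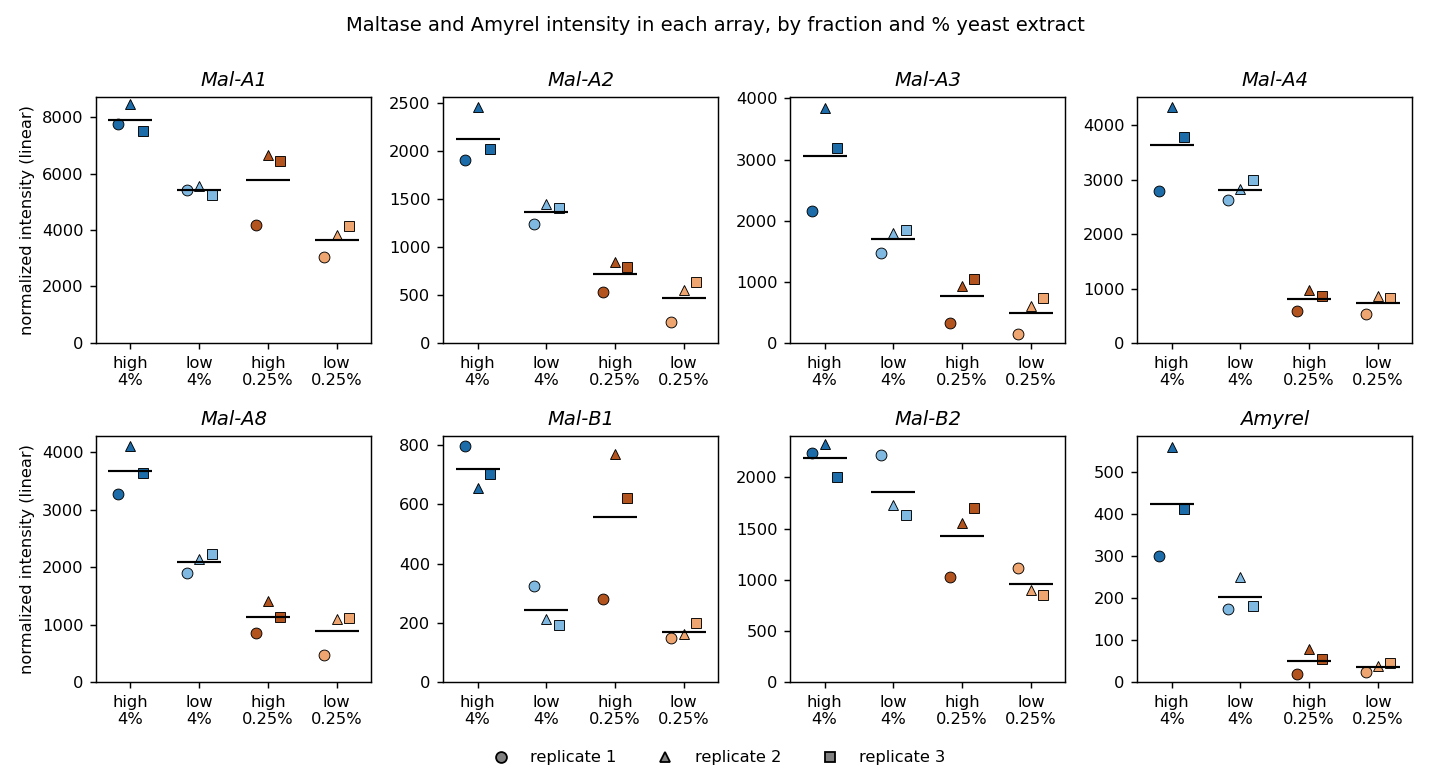
Normalized intensity (linear axis from 0) of the 8 members in each of the 12 arrays, by fraction and diet. A circle, triangle or square marks replicate 1, 2 or 3, and a bar the mean of a group. Amyrel, Mal-A2, Mal-A3, Mal-A4 and Mal-A8 sit lower on 0.25% YE in both fractions, Mal-B1 overlaps between diets, and replicate 1 is the lowest of its group on 0.25% YE for most members.

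Amyrel had the largest diet difference of the members in both fractions. In the high fraction its intensity was 302, 559.6 and 413 in replicates 1, 2 and 3 on 4% YE and 20.6, 80.1 and 54.4 on 0.25% YE. The lowest array on the rich diet was well above the highest on the restricted diet. The log2 difference was -3.17 ± 0.42 (SE, n = 3 per group), 8.98-fold lower (limma adjusted p = 0.00243), the 7th lowest of 11261 probe sets. Low-fraction values of Amyrel were 175, 251 and 182 on 4% YE and 25.4, 39.0 and 45.2 on 0.25% YE, again without overlap. The log2 difference there was -2.46 ± 0.42, 5.50-fold lower (limma adjusted p = 0.0155). Replicate 1 on 0.25% YE was close to the array background, at 20.6 against 13.8 in the high and 25.4 against 16.4 in the low fraction. Pair by pair of equal replicate number, the log2 difference ran from -3.81 to -2.79 in the high and from -2.74 to -1.98 in the low fraction. The call in the high fraction held in all 18 alternative fits. That in the low fraction was lost without low-fraction replicate 2 on 4% YE (adjusted p = 0.0948), replicate 3 on 4% YE (0.0584) or replicate 2 on 0.25% YE (0.0579), and with no filter on dim probe sets (0.0628).

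Mal-A1 to Mal-A8 are 8 consecutive genes on chromosome arm 2R in the RefSeq gene table (Release 6), of which 5 are members. Mal-A4 had the firmest difference of them. In the high fraction it measured 2799, 4338 and 3785 on 4% YE and 584, 972 and 858 on 0.25% YE, and in the low fraction 2626, 2831 and 3005 against 527, 869 and 829. Every array on the restricted diet was below every array on the rich diet. The log2 differences were -2.18 ± 0.25, 4.55-fold lower (limma adjusted p = 0.000901), and -1.96 ± 0.25, 3.89-fold lower (limma adjusted p = 0.00213). Both calls held in all 18 alternatives, and the pairs of equal number differed little from one another (-2.26 to -2.14 in the high and -2.32 to -1.70 in the low fraction).

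Mal-A2, the second gene of the cluster, measured 1901, 2454 and 2021 in the high fraction on 4% YE and 529.9, 840.1 and 786 on 0.25% YE. In the low fraction it measured 1241, 1451 and 1402 against 223, 555 and 631, so that the diets did not overlap in either fraction. It fell 2.995-fold in the high fraction (log2 difference -1.58 ± 0.34, limma adjusted p = 0.0359) and 3.18-fold in the low fraction (-1.67 ± 0.34, limma adjusted p = 0.0382). Both calls were near the threshold. Leaving out 1 array ended the call in the high fraction for 10 of the 12 arrays, all but low-fraction replicates 1 and 3 on 0.25% YE (adjusted p of the lost calls from 0.0512 to 0.166). For the low fraction it did so for 9 arrays, all but replicate 1 of each 0.25% YE fraction and low-fraction replicate 3 on 0.25% YE (0.0558 to 0.157). Both were also lost with the values as deposited (adjusted p = 0.277 and 0.128) and with no filter on dim probe sets (0.0817 and 0.0943).

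Mal-A8, the last gene of the cluster, measured 3269, 4099 and 3629 in the high fraction on 4% YE and 854, 1403 and 1127 on 0.25% YE. It fell 3.30-fold there (log2 difference -1.72 ± 0.30, limma adjusted p = 0.0141). Without high-fraction replicate 2 on 4% YE the adjusted p was 0.0791, without replicate 3 on 4% YE 0.0634 and without replicate 3 on 0.25% YE 0.0531, and with the values as deposited it was 0.180. In the low fraction it measured 1907, 2134 and 2235 against 465, 1107 and 1117, also without overlap, but with replicate 1 far below the other two on the restricted diet. The log2 difference of -1.33 ± 0.30 missed the threshold (limma adjusted p = 0.0677) and passed in the blocked fit, which takes the replicate number as a term (adjusted p = 0.00891).

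Mal-A3 had differences close to those of Mal-A4 with a wider spread. It measured 2154, 3844 and 3192 against 323, 931 and 1046 in the high fraction, and 1469.9, 1804 and 1843 against 151, 607 and 733 in the low fraction. The diets did not overlap, and replicate 1 was the lowest array of each group. The log2 differences, -2.13 ± 0.55 for the high and -2.06 ± 0.55 for the low fraction, did not pass the test (limma adjusted p = 0.0855 and 0.133). In the blocked fit they passed (adjusted p = 0.00543 and 0.00745), and in the high fraction also without low-fraction replicate 1 on 0.25% YE (adjusted p = 0.0111).

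Mal-A1, the first gene of the cluster, had the smallest difference of its 5 members. It measured 7749, 8454 and 7511 against 4179, 6667 and 6445 in the high fraction and 5426, 5548 and 5231 against 3026, 3816 and 4146 in the low fraction. The diets did not overlap, but the gap between them was narrow beside the spread on 0.25% YE. The mean intensity of Mal-A1 was at percentile 99.7 of all probe sets. Whether the top of the intensity range limits its differences between diets or fractions was not tested. The log2 differences of -0.48 ± 0.17 and -0.57 ± 0.17 did not pass the test (limma adjusted p = 0.218 and 0.202). The difference in the low fraction passed without high-fraction replicate 1 on 0.25% YE (adjusted p = 0.0348).

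Mal-B1 and Mal-B2 are neighbouring genes on chromosome arm 2L. Mal-B2 measured 2238, 2330.2 and 2006 on 4% YE and 1029, 1557 and 1703 on 0.25% YE in the high fraction, and 2217, 1725 and 1630.0 against 1114, 902 and 853 in the low fraction. All 3 arrays on the restricted diet were below those on the rich diet in each fraction. The log2 differences were -0.65 ± 0.21 (limma adjusted p = 0.185) and -0.95 ± 0.21 (limma adjusted p = 0.0629). The second passed in the blocked fit (adjusted p = 0.0493), without high-fraction replicate 1 on 0.25% YE (0.0169) and without low-fraction replicate 1 on 0.25% YE (0.0445).

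Mal-B1 was the member whose diets overlapped in both fractions. It measured 799, 656 and 702 against 279.9, 770.1 and 620.3 in the high fraction and 324, 214 and 192 against 150.1, 163 and 200.1 in the low fraction. Replicate 1 on 0.25% YE was low in the high fraction, while replicate 2 was above 2 of the 3 arrays on the rich diet. The log2 differences were -0.49 ± 0.34 and -0.48 ± 0.34 (limma adjusted p = 0.619 and 0.783), with 95% intervals from -1.23 to 0.25 and from -1.22 to 0.26.

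**Figure D2:**
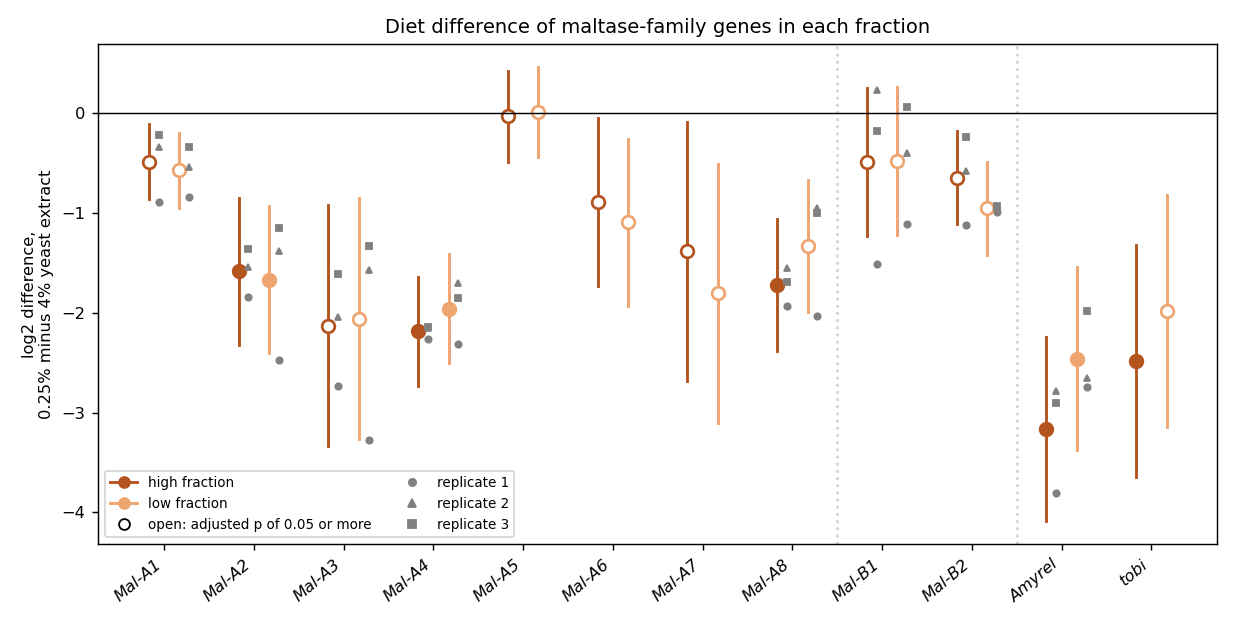
Log2 diet difference (0.25% minus 4% YE) of the maltase and amylase family in the high and the low fraction, with 95% intervals of the limma fit; filled points passed at an adjusted p below 0.05 and small grey marks are the pairs of equal replicate number. Along the Mal-A cluster the difference runs from -0.48 at Mal-A1 to -2.18 at Mal-A4 in the high fraction, is -0.03 at Mal-A5 and is -1.72 at Mal-A8.

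Without the arrays numbered 1, 7 of 8 members fell in the high fraction and 7 of 8 in the low fraction, all but Mal-B1 in each, where 10.7% and 4.4% of all probe sets fell. In the blocked fit 5 members fell among high-fraction and 6 among low-fraction values, beside 2.34% and 1.8% of all probe sets. Without the arrays numbered 1 the log2 difference was -2.85 ± 0.22 for Amyrel, -2.16 ± 0.11 for Mal-A4, -1.84 ± 0.13 for Mal-A3 and 0.03 ± 0.16 for Mal-B1 in the high fraction, where that of Mal-B1 thus lay on the other side of 0.

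**Figure D3:**
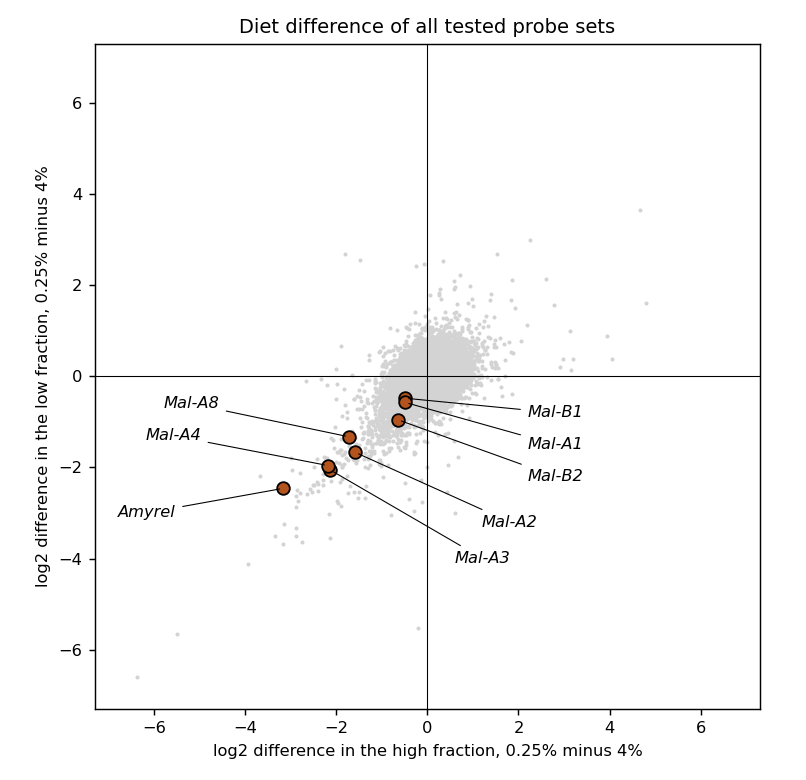
Log2 diet difference in the high fraction (x axis) against that in the low fraction (y axis) for all 11261 probe sets, with the 8 members named. Both axes compare the same diets, in fractions that may come from the same gradients. Amyrel, Mal-A3, Mal-A4, Mal-A8 and Mal-A2 lie at the lower left edge of the cloud.

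Whether the diet difference of the members itself differed between the high and the low fraction was tested as an interaction. It was called for 0 of 8 members (limma adjusted p = 0.9999 for each, and 0 of 8 below an unadjusted p of 0.05), and for 0.00888% of all probe sets, which is 1 probe set. The estimate farthest from 0 was that of Amyrel, whose diet difference was lower in the high than in the low fraction by -0.71 ± 0.60, with a 95% interval from -2.01 to 0.59. The widest interval was that of Mal-A3, from -1.77 to 1.63. For Mal-A4 the interval ran from -0.997 to 0.54 and for Mal-B2 from -0.35 to 0.96, so that differences of that size were not detectable with 3 arrays per group.

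The comparison of fractions within a diet asks which mRNAs were relatively enriched among those with 5 or more ribosomes. All 8 members had a higher mean in the high than in the low fraction on both diets. Of all probe sets, 48.8% on 4% YE and 49.0% on 0.25% YE had a log2 difference below 0. The median log2 difference of the 8 was 0.72 on 4% YE and 0.60 on 0.25% YE, beside 0.02 on each diet over all probe sets. Mal-B1 had the largest difference, measuring 799, 656 and 702 in the high against 324, 214 and 192 in the low fraction on 4% YE, a 3.02-fold difference (log2 1.59 ± 0.34, limma adjusted p = 0.00406). On 0.25% YE it was 3.003-fold higher (1.59 ± 0.34, limma adjusted p = 0.00886). The fractions of Mal-B1 did not overlap on either diet, although its diet difference was among the smallest. The call on 0.25% YE was lost without high-fraction replicate 2 on that diet (adjusted p = 0.0513).

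Mal-A1 was also higher in the high fraction on both diets, by 0.55 ± 0.17 on 4% YE (1.46-fold, limma adjusted p = 0.0271) and 0.64 ± 0.17 on 0.25% YE (1.55-fold, limma adjusted p = 0.0228). The call on 4% YE was lost when any 1 of the 6 arrays of that diet was left out (adjusted p 0.0535 to 0.0963). That on 0.25% YE was lost without high-fraction replicate 2 or 3 or low-fraction replicate 1 or 2 of that diet (0.0513 to 0.106). With a common median (0.500 and 0.154) and with no filter (0.0821 and 0.0715) both were lost, and as deposited that on 4% YE (0.118). These 2 of 8 members on each diet compare with 16.3% of all probe sets called higher on 4% YE and 9.66% on 0.25% YE, and 0 members were lower.

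The other 6 members did not pass on either diet. On 4% YE the fractions did not overlap for 6 of 8 members, all but Mal-A4 and Mal-B2, beside 27.2% of all probe sets. On 0.25% YE they did not overlap for Mal-A1 and Mal-B1, 2 of 8, beside 16% of all. The log2 difference of Mal-A8 was 0.81 ± 0.30 on 4% YE (limma adjusted p = 0.0584) and that of Amyrel 1.04 ± 0.42 (limma adjusted p = 0.0770); both passed in the blocked fit (adjusted p = 0.0118 and 0.00917). Mal-A8 also passed without replicate 1 of the high (0.0493) or the low fraction (0.00463) on 0.25% YE, and Amyrel without that of the high fraction (0.0160), with the values as deposited (0.0252) and with a pseudocount of 16 (0.0361). Mal-A2 on 4% YE (0.63 ± 0.34, limma adjusted p = 0.168) passed without low-fraction replicate 1 on 0.25% YE (0.0227). On 0.25% YE, Mal-A2 (0.72 ± 0.34, limma adjusted p = 0.144) passed with the block (0.0433) and Mal-B2 (0.56 ± 0.21, limma adjusted p = 0.0804) without high-fraction replicate 1 of that diet (0.0102).

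Mal-A4 had the smallest difference between fractions on 0.25% YE, 0.12 ± 0.25, with a 95% interval from -0.42 to 0.66. With the block 4 members were higher in the high fraction on 4% YE and 3 on 0.25% YE, beside 22.8% and 16.8% of all probe sets. Without the arrays numbered 1 these were 8 of 8 and 6 of 8, beside 31.4% and 28.6%, shares that rose for all probe sets as well.

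**Figure D4:**
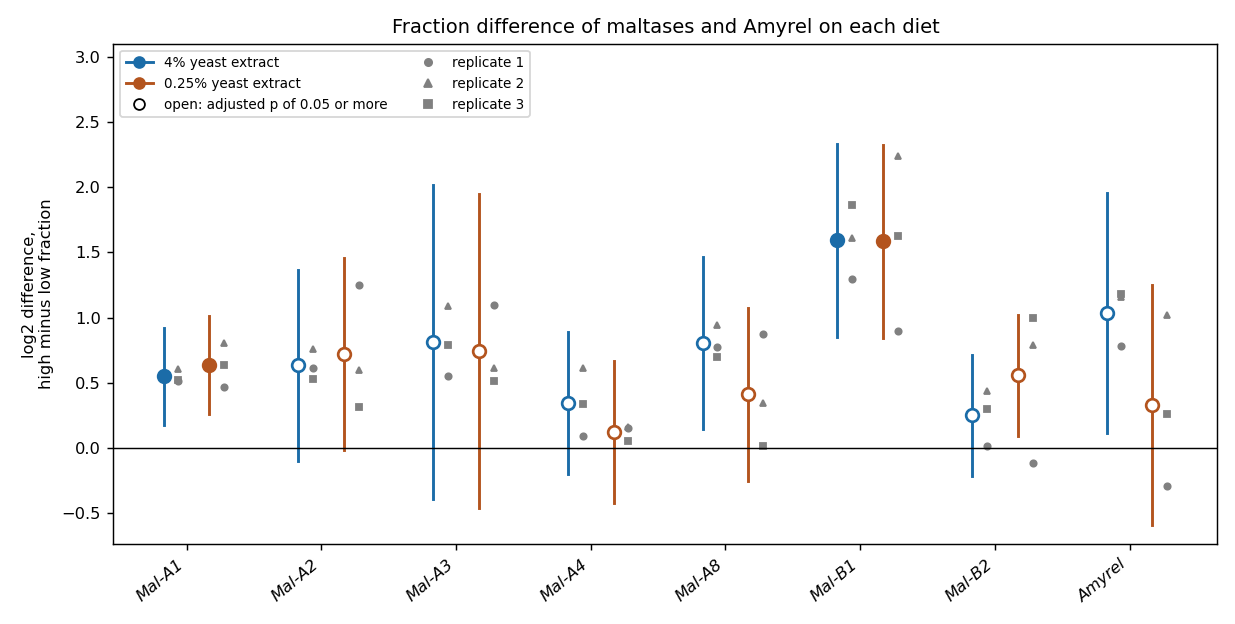
Log2 difference between the high and the low fraction on 4% and on 0.25% YE for the 8 members, with 95% intervals of the limma fit. Filled points passed at an adjusted p below 0.05, and grey marks are the pairs of equal replicate number. Mal-B1 stands highest at 1.59 on both diets, Mal-A1 is the other member with filled points, and Mal-A4 is nearest 0 on 0.25% YE.

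The members varied together over the 12 arrays to differing degrees, given here as a description of arrays that share diet and normalization and may share gradients. Of 28 pairs of members, Pearson's r of log2 intensity was highest between Mal-A2 and Mal-A8 (0.988) and lowest between Mal-A4 and Mal-B1 (0.396). Mal-A4 correlated at 0.979 with Amyrel, although the genes lie apart on 2R. With group means taken out, Mal-A2 and Mal-A8 still correlated at 0.983, while Mal-B2 correlated at -0.10 with Mal-A2 and -0.13 with Mal-A8. Correlation with the mean standardized profile of the 8 members was between 0.718 for Mal-B1 and 0.974 for Mal-A2.

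The rest of the family was read from a list of 8 other amylase and α-glucosidase genes, of which 6 had a probe set of their own. In the high fraction 1 of the 6 fell on 0.25% YE, in the low fraction 0, and 0 rose in either. The gene that fell was tobi, an α-glucosidase on 3R known as a target of brain insulin and known to be raised by dietary protein. It measured 4997, 6588 and 6288 on 4% YE and 409.8, 1813 and 1578 on 0.25% YE in the high fraction. All arrays on the restricted diet were lower, a 5.60-fold difference (log2 -2.49 ± 0.53, limma adjusted p = 0.0361). Low-fraction values of tobi were 2709.8, 2979.9 and 2934 against 324, 1038 and 1143 (-1.98 ± 0.53, limma adjusted p = 0.134; 0.0154 with the replicate block). The call in the high fraction was held in 6 of 18 alternatives, with adjusted p up to 0.145. It was lost without any 1 array of 4% YE, without high-fraction replicate 1 or 3 or low-fraction replicate 2 on 0.25% YE, as deposited, with a common median and with no filter.

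Mal-A5 lies between Mal-A4 and Mal-A6 in the middle of the cluster, and its level was near the same on both diets. It measured 937, 779 and 702 against 883, 784 and 694 in the high fraction and 920.1, 686 and 613 against 798, 679 and 736 in the low fraction. Its arrays overlapped between the diets in both fractions. The log2 differences were -0.03 ± 0.21 (95% interval -0.48 to 0.42, limma adjusted p = 0.975) and 0.01 ± 0.21 (-0.44 to 0.47, limma adjusted p = 0.993).

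Mal-A6 and Mal-A7, the next genes of the cluster, did not pass between diets in the fit reported. Without the arrays numbered 1 both were called lower in both fractions, where 10.7% and 4.4% of all probe sets fell. The limma adjusted p was then 0.00451 and 0.00225 for Mal-A6 and 0.000321 and 3.87e-05 for Mal-A7. Mal-A6 measured 5426, 7511 and 6775 against 1878, 4830.2 and 4787 in the high fraction (-0.89 ± 0.39, limma adjusted p = 0.330) and 2651, 3039 and 2657 against 719, 1565 and 1964 in the low fraction (-1.09 ± 0.39, 0.345). Mal-A7 measured 4438, 6563 and 5905 against 887, 3123 and 3500.0 in the high fraction (-1.38 ± 0.60, limma adjusted p = 0.329) and 1435, 2126 and 1808 against 175, 796 and 921 in the low fraction (-1.81 ± 0.60, 0.285; 0.0244 with the block). For both genes every array on the restricted diet was below those on the rich diet, and replicate 1 on 0.25% YE was the lowest. Both were called higher in the high fraction on 4% YE (1.23, limma adjusted p = 0.0274, and 1.65, 0.0494) and on 0.25% YE (1.43, 0.0227, and 2.08, 0.0289). Each of these 4 calls was lost in 4 to 10 of 18 alternatives, among them on 0.25% YE without high-fraction replicate 2 or 3 or low-fraction replicate 1 of that diet, and on 4% YE for Mal-A6 without any array of that diet but high-fraction replicate 1 and for Mal-A7 without any of the 6 (adjusted p up to 0.131). Treh, the trehalase that splits the blood sugar trehalose, and GCS2alpha, a glucosidase of protein folding, had diet differences of -0.51 and 0.10 in the high and -0.24 and 0.01 in the low fraction, with limma adjusted p of 0.567 or above.

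Of 9 other glycosidases tested of 12 listed, 1 was called lower in the high fraction and 0 in the other, with medians of -1.04 and -1.03. An unadjusted p below 0.05 was found for 4 and 5 of the 9, beside 1534 and 1015 of all 11261 probe sets. In each fraction 5 were lower without overlap, beside 11.6% and 8.21% of all probe sets. The called gene was LManIV, a lysosomal-type α-mannosidase, at 48.6, 143 and 153 on 4% YE and 2.88, 17.9 and 19.5 on 0.25% YE (limma adjusted p = 0.0319). Only 1 of the 3 arrays on 0.25% YE exceeded background, so the fitted log2 difference of -3.17 ± 0.66 rests largely on values not above it. Leaving out replicate 2 or 3 of either fraction on 4% YE, or high-fraction replicate 1 on 0.25% YE, ended that call, as did no filter on dim probe sets (adjusted p up to 0.152 over all alternatives). LManIII, chosen after its values were seen, was not called. It measured 813, 1461 and 1203 against 77.6, 320 and 314 in the high fraction. In the low fraction it measured 627, 709 and 743 against 46.1, 221 and 224. Of 7 sugar transporters 0 were called by limma in either fraction (3 and 1 at an unadjusted p below 0.05), with medians of -0.49 and 0.00. Of 7 tested genes of glucose entry and storage, 0 were called by limma between diets (2 and 0 at an unadjusted p below 0.05; medians -0.31 and -0.03).

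Of 9 sugar-response regulators, 1 rose in each fraction and 0 fell, where 0.533% of all probe sets rose in the high fraction and 0.0977% in the other. The gene was cbt, a zinc-finger transcription factor known as a target of the glucose sensor Mondo. It measured 888, 1098 and 972 on 4% YE and 1515, 1905 and 2082 on 0.25% YE in the high fraction, and 606, 802 and 657 against 1378, 1386 and 1469 in the low fraction. Every array on the restricted diet was above those on the rich diet, by 0.89 ± 0.18 (limma adjusted p = 0.0319) and 1.04 ± 0.18 (limma adjusted p = 0.0170). The call held in 9 of 18 alternatives in the high and 12 of 18 in the low fraction. In the high fraction it was lost without any high-fraction array on 4% YE, low-fraction replicate 3 on 4% YE, high-fraction replicate 2 or 3 or low-fraction replicate 2 on 0.25% YE (adjusted p up to 0.395 over all alternatives). In the low fraction it was lost without low-fraction replicate 1 or 3 on 4% YE or 2 or 3 on 0.25% YE (up to 0.281), and it was lost with the values as deposited or scaled to a common median in both. The differences of sug were 1.38 ± 0.38 and 1.68 ± 0.38 (limma adjusted p = 0.108 and 0.0675) and those of daw 1.40 ± 0.50 and 1.80 ± 0.50 (0.220 and 0.141), none of which passed.

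Digestive proteases are other enzymes of the gut. Of 29 gut proteases and lipases, 24 were tested and 0 were called between diets in either fraction by limma, with median differences of 0.04 and -0.14. At the shares of all probe sets given above, a list of this size would hold few calls or none. An unadjusted p below 0.05 was found for 3 and 2 of the 24. This was near the share over all probe sets, 1534 and 1015 of 11261. The diets did not overlap for 6 of the 24 in the high fraction, 4 of them lower on 0.25% YE, and for 4 in the low fraction, 3 of them lower. Chosen after their values were seen, the proteases Jon25Bi and Jon99Ci were lower without overlap in both fractions. Jon25Bi differed by -1.54 ± 0.55 and -1.84 ± 0.55 (limma adjusted p = 0.221 and 0.200) and Jon99Ci by -1.32 ± 0.57 and -1.47 ± 0.57 (0.328 and 0.417), sizes within the range of the members.

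**Figure D5:**
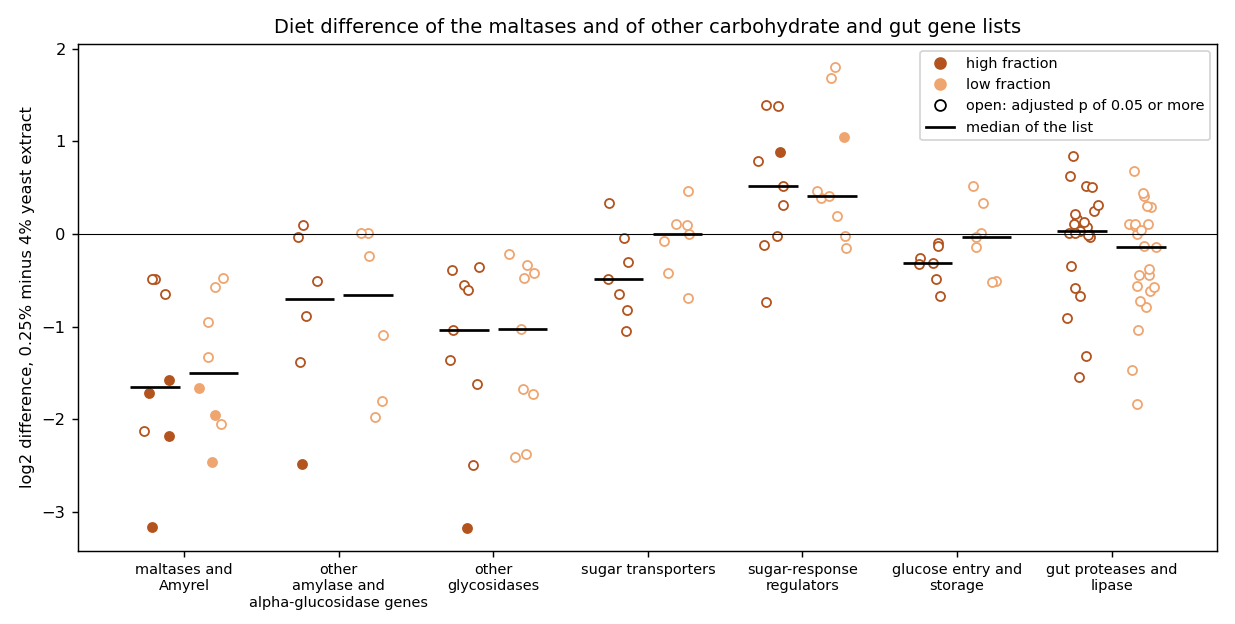
Log2 diet difference of every tested gene of the members and 6 lists in the high and the low fraction, with the median of each list as a bar; filled points passed at an adjusted p below 0.05. The members' medians are -1.65 and -1.498, and those of the gut proteases and lipases 0.04 and -0.14.

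Markers of the tissues that could hold these enzymes were read in the same way. Of 6 midgut enterocyte markers, which are proteases and partly shared with the list of gut proteases, 5 had a probe set and 0 were called between diets (medians 0.01 and -0.00); 1, Jon25Bi, had an unadjusted p below 0.05 in each fraction. Their summed intensity was 19359 to 20947 on 4% YE and 18309 to 20818 on 0.25% YE in the high fraction, and 16004 to 21647 against 14768 to 20581 in the low fraction. These ranges overlapped between diets. The sum is weighted to its brightest probe sets, betaTry and Jon65Aiv, with means over all arrays of 6310 and 5960 against 1577 for Jon25Bi. Among 3 fat body markers, Lsp2, a storage protein, fell from 5856, 6990 and 6742 to 17.8, 144 and 174 in the high fraction (log2 -6.38 ± 0.77, limma adjusted p = 0.00125) and likewise in the low fraction (-6.61 ± 0.77, 0.000908). The lipoprotein apolpp, also made by fat body, differed by -0.18 and -0.05 and did not pass (limma adjusted p = 0.720 and 0.978), and Fbp1 was not above background in any array. The summed intensity of these 3 probe sets went from between 12386 and 14558 to between 4805 and 7743 in the high fraction, and from between 9450 and 10228 to between 4434 and 5284 in the low fraction. This sum follows Lsp2, since the mean of apolpp was 7186 against 6462 in the high and 5049 against 4890 in the low fraction. The part of fat body RNA in the members' differences was not tested. For the labelled sex, 4 accessory gland and 5 testis markers summed to 15054 to 18589 and 3853 to 10939 over the 12 arrays, while of the female yolk protein genes Yp1 exceeded background in 0 of 12 arrays, Yp2 in 4 and Yp3 in 9. The summed yolk level was 23.8 to 105 over the arrays. Between diets the testis sum did not overlap, at 3853 to 5082 on 4% YE and 5435 to 6889 on 0.25% YE in the high fraction. In the low fraction it was 6873 to 8636 against 8821 to 10939. Nor did the sum of 2 muscle markers, at 789 to 992 against 1008 to 1540 and 670 to 1029 against 1124 to 1359. None of these testis and muscle markers was called between diets, and their part in the members' differences was not tested.

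The 8 genes most like the members were those of highest r with the mean member profile over the 12 arrays. They were CG9547 (0.991), Shmt (0.989), Sodh1 (0.985), CG31075 (0.984), Ugt35C1 (0.981), CG34040 (0.981), CG15263 (0.977) and Had1 (0.974). Their log2 diet differences, to which this choice is tied, ran from -3.16 for CG15263 to -1.51 for Ugt35C1 in the high fraction. CG34040 measured 2606, 3761 and 3507 on 4% YE and 295, 588 and 542 on 0.25% YE in the high fraction, with replicate 1 the lowest of each group. These values are from 1 of its probe sets, and another was also tested. Over both, the high-fraction diet difference was called in 22 of 36 alternative fits, with log2 differences from -3.22 to -2.43.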

How the data were processed

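The deposited values were array intensities, 1 per probe set and array, from 12 one-colour Affymetrix arrays hybridised with cRNA from 100 ng of RNA each, per the labels' protocols. How the authors summarised probes, and any background step, is not given in the sources used here. As deposited, the intensity medians ran from 39.3 to 95.6 and 9.45% to 13.7% of values per array lay below 0. Here the 12 arrays were quantile normalized, values were floored at 0 and log2(value + 1) was taken. The 100 control probe sets and the dimmest 40% by mean intensity (under 23.7) were left out, which kept 11261 of 18769. With limma 3.58.1 (R 4.3.3; lmFit, and eBayes with an intensity trend) 1 model gave each of the 4 groups a mean and left 8 residual degrees of freedom. Every adjusted p is two-sided and by Benjamini-Hochberg over all probe sets of a contrast. The number of arrays limits the precision.

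The members, the lists and the tests were chosen with earlier results of these data known. Named were all members, all genes of the list of other amylases and α-glucosidases, up to 4 called genes of smallest p of other lists, and the 8 genes most like the members; Amy-p and Amy-d share a probe set with several symbols and are not analysed here. Replicate numbers came from the sample titles. Deviations from group means correlated between arrays of equal number that shared a diet or a fraction (0.166 to 0.669 over 12 pairs). Equal-numbered arrays that shared neither correlated at as little as 0.073. High-fraction replicate 2 on 4% YE correlated at 0.577 with replicate 3 on 0.25% YE and at 0.390 with replicate 2. The labels do not say what a number stands for. Pairing by number was thus an assumption, and its fit as a block is given where it changed a call. Alternatives were the values as deposited, a common median, a pseudocount of 16, no filter, the block, the arrays numbered 1 left out, and each array left out. The procedure was tested on simulated data. Whether probe sets of these related genes share signal was not tested.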

Additional observations from a re-analysis of the deposited data

How the results depend on the processing

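The calls of Mal-A4 in both fractions and of Amyrel in the high fraction between diets held in all 18 alternatives. Of the members, 2 fell in the high fraction with the values as deposited (4 in the fit reported), beside 35 of all 11261 probe sets. In the low fraction (3 in the fit reported), 5 fell with a common median, 1 with no filter and 6 with the replicate block. Of all probe sets, 131 of 11261 fell there with a common median, 77 of 18769 with no filter and 203 of 11261 with the block. Higher in the high fraction (2 on each diet in the fit reported) were 1 on 4% YE and 1 on 0.25% YE with a common median, 1 and 1 with no filter, and 4 on 4% YE with the replicate block. Among all probe sets, those called higher with a common median were 1953 (4% YE) and 1388 (0.25% YE) of 11261. With no filter they were 1630 and 813 of 18769, and with the block 2570 of 11261 on 4% YE. Beyond the calls named with the members above, the replicate block changed no other call of a member. In the fits without 1 array or without the arrays numbered 1, the members called varied in number. Between diets they were 2 to 7 (high fraction) and 1 to 7 (low fraction). Between fractions they were 1 to 8 (4% YE) and 0 to 6 (0.25% YE). All probe sets called in the same direction varied as well, from 45 to 1208 and from 41 to 496 of 11261 between diets. Between fractions they ran from 1156 to 3540 (4% YE) and from 266 to 3218 (0.25% YE). The cause was not tested.

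Estimates of the interaction turned sign with the values as deposited for Mal-A3 (0.21), Mal-A4 (0.16) and Mal-B1 (0.072) and with a common median for the same genes (0.18, 0.13 and 0.042). Without 1 or more arrays they ranged from -0.040 to 0.32 for Mal-A1, -0.38 to 0.37 for Mal-A2, -0.77 to 0.47 for Mal-A3 and -0.30 to 0.43 for Mal-B1. The difference between fractions on 0.25% YE ranged from -0.11 to 0.34 for Mal-A4, -0.0077 to 0.62 for Mal-A8 and -0.081 to 0.87 for Amyrel, and the diet difference of Mal-B1 in the high fraction from -0.78 to 0.027. Of these values, that of Amyrel on 0.25% YE was called without the arrays numbered 1 (0.64, limma adjusted p = 0.0278), and no other was.

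With the values as deposited the median over all probe sets moved to 0.21 and 0.14 between diets and to 0.32 (4% YE) and 0.41 (0.25% YE) between fractions, and with a common median to 0.12 on 0.25% YE. The share of calls that were higher went from 30.3% to 12.5% between diets in the high fraction and from 47.6% to 77.8% and 45.1% to 92.2% between fractions with the values as deposited, and to 56.9% on 0.25% YE with a common median. No member changed the direction of its diet difference under these 2 scalings. Probe sets called were 198 (high) and 109 (low) between diets, against 40 and 42 as deposited, 476 and 254 with the block and 2509 and 895 without the arrays numbered 1.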
